A study of Homo sapiens with 4 samples.

Results

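The long arm of chromosome 1, 1q, was examined through 59 genes spread along it that had been selected from earlier results of these same arrays, in which neighbouring genes of the arm lay higher in the H1.3 cells together. Because measured differences between the H1.3 and vector-only arrays chose the members, those differences are given here as a description and not as a test. A row of the value table was named to 56 of the 59 members, out of 884 measured 1q genes and 18389 measured genes in all. TPM3, ASH1L and MPZL1 had no row named to them and are not analysed here. The cells were OVCAR-3, an established human ovarian carcinoma line, and total RNA was hybridised to 4 one-colour arrays. The vector-only group (2 arrays) was OVCAR-3 transfected with a vector lacking H1.3, and the H1.3 group (2 arrays) was OVCAR-3 labelled as overexpressing human H1.3. The labels call the replicates biological but name no promoter, clone or separate transfection, so the p-values reflect array-to-array spread alone, which may be technical. The series was designed to find the transcript changes that follow H1.3 overexpression. All values are log2 array levels, and every difference is H1.3 minus vector only on that scale, where 1 is a doubling.

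Linker histone H1 binds the nucleosome where DNA enters and leaves it and helps chromatin fold, and H1.3 is one of the variants made in dividing cells. A chromosome arm is not a pathway: the genes of 1q serve unrelated functions and share mainly their place on the chromosome. Gain of 1q is among the frequent chromosome changes of carcinomas, those of the ovary included. DNA copy number was not analysed here.

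The gene encoding H1.3, H1-3, ran against the labels. It read 8.65 and 7.88 with vector only and 7.47 and 7.69 in the H1.3 arrays, a difference of -0.69 ± 0.24 (SE) with a limma adjusted p of 0.319. Whether its probes lie in the sequence the vector carries was not analysed here, and neither was an exchange of the labels, which would turn the sign of every difference below. H1.3 below means the arrays so labelled. The array medians lay between 6.21 and 6.27. All 15 markers of ovarian carcinoma lines were measured, and 13 of them lay above the median level of the named transcript clusters, 6.84. FOLR1, the folate receptor, was the 1 of the 15 that passed the test, lower in the H1.3 arrays by -1.26. Markers of leukocytes (6 measured), fibroblasts (7) and endothelium (5) had median levels of 5.12, 5.43 and 5.11, and 0 of them passed, with median differences of 0.07, 0.05 and 0.01. In RNA from whole cultures, fewer cells of a kind and less RNA per cell cannot be told apart.

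Most members lay somewhat higher in the H1.3 arrays, from the start of the arm to PARP1, the last of them. Their median difference was 0.24, a 1.18-fold difference, with 49 of 56 positive, 6 negative and 1 at 0. Of the 56, 34 lay between 0.1 and 0.4, 9 lay above 0.4 and 13 lay below 0.1. Both H1.3 arrays lay above both vector-only arrays for 39 members, or 69.6%, against 21.2% of all 21214 named transcript clusters. Both lay below for 2 members, SEMA4A and MDM4, against 19.4% of all clusters. The groups overlapped for the other 15 members.

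Few members moved far enough to pass the test alone. With limma and Benjamini-Hochberg adjustment over all named clusters, 3 members were called higher, where 0.24% of all clusters were, and 1 was called lower, where 0.264% were. At an unadjusted p under 0.05, 20 members were higher, where 5.21% of all clusters were. Since the same contrast chose the members, nothing is read from these counts. The 52 members that were not called had a median difference of 0.23, and 46 of them were positive.

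The 1q genes that were not members lay higher too. Differences were smaller among genes of low level, so genes are given by whether their mean lay above the median level of 6.84, as 54 of the 56 members did. Of 828 other measured 1q genes, the 371 above that level had a median difference of 0.195, and 82.8% were positive. The 457 below it had a median of 0.05. The short arm of the same chromosome, 1p, had a median of -0.015 over its 546 genes above the median level, with 46.3% positive. All 9303 genes above that level had a median of -0.005, and the medians of the 22 other chromosomes ran from -0.235 to 0.06. Those chromosomes were taken whole and not by arm, so their medians do not show how other single arms compare with 1q.

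Read in gene order, the difference stepped up at the boundary of the arms and then stayed up. In windows of 31 neighbouring genes above the median level, the median difference was positive in all 395 windows that lay wholly on 1q, from 0.12 to 0.275. The 516 windows wholly on 1p ran from -0.155 to 0.075, and 41.5% were positive. In 8 blocks of nearly equal gene number from the centromere outward, the medians of the 1q genes above the median level were 0.26, 0.21, 0.14, 0.19, 0.22, 0.195, 0.18 and 0.16. The first block, from RNVU1-17 to LINC00302, held 15 members and had the highest median, and the last, from TRIM67-AS1 to PGBD2, held none. Neighbouring windows share genes and all windows share the 4 arrays.

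**Figure D1:**
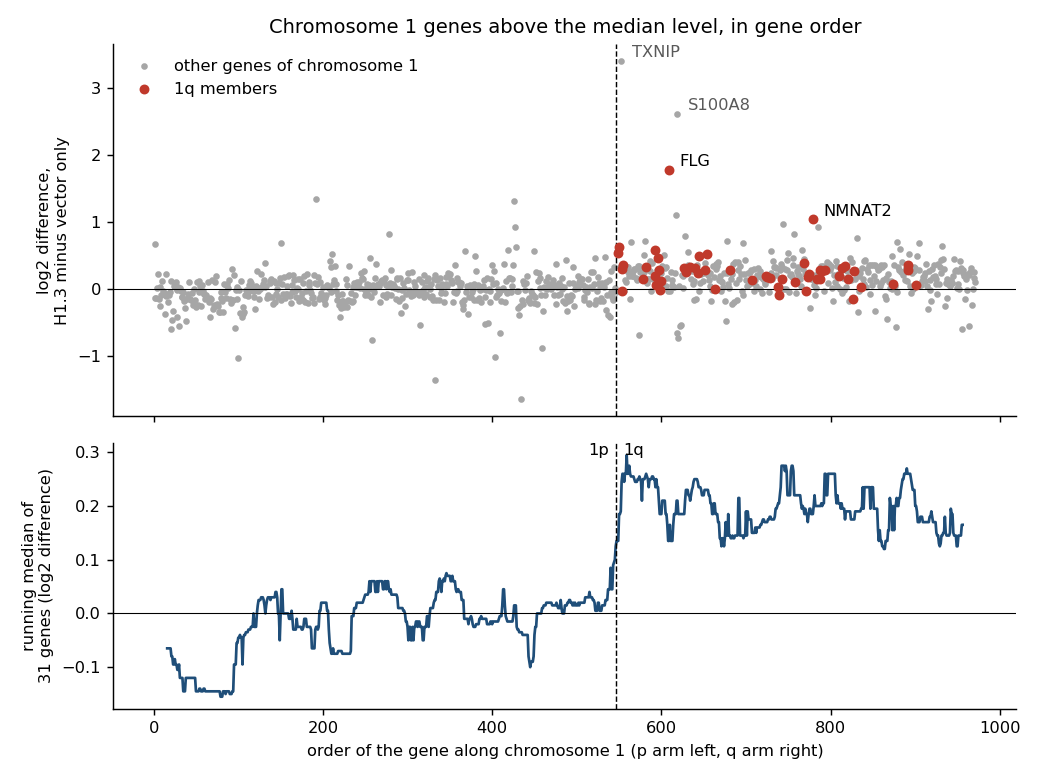
Upper panel: log2 difference, H1.3 minus vector only, of each chromosome 1 gene above the median level, in gene order with 1p left and 1q right of the dashed line; red points are the 1q members and grey points other genes (CHI3L1 and SEMA4A lie below the median level and are not drawn). Lower panel: median over 31 neighbouring genes, which stays between -0.155 and 0.075 in windows wholly on 1p and between 0.12 and 0.275 in windows wholly on 1q.

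Genes in the gaps between members are described for the longest gaps. Among the shorter gaps, medians of genes above the median level ran from -0.01 to 1.8675. The lowest was over 3 genes between TIMM17A and KDM5B, and the highest over 2 genes between PIAS3 and PRKAB2. Between CCT3 and PFDN2, 93 genes hold no member, and the 25 above the median level had a median difference of 0.215. Between NUCKS1 and IARS2, the 37 such genes had a median of 0.155. Beyond PARP1, the last member, 154 genes run to the end of the arm, and the 70 above the median level had a median of 0.1575, from ITPKB at 0.495 to ZNF692 at 0.105. The gap between FLG and ILF2, which holds the epidermal differentiation and S100 genes, had a median of 0.045 over 17 such genes. Differences within it were wide: S100A8, a calprotectin subunit, rose by 2.62 ± 0.37 (SE; limma adjusted p 0.0467), while S100A6, another calcium-binding protein, differed by -0.66 ± 0.15 (adjusted p 0.128). S100A8 was the 1 called gene of 1q that is not a member.

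Each pair of arrays gave its own values for the members. The median over members was 0.215 for H1.3 array 1 minus vector-only array 1, 0.19 for H1.3 array 1 minus vector-only array 2, 0.27 for H1.3 array 2 minus vector-only array 1, and 0.275 for H1.3 array 2 minus vector-only array 2. The counts of positive members were 43, 48, 46 and 53 of 56. These 4 pairs share arrays and are not independent. Pairs within a group, which the choice of members did not use, gave medians of -0.04 (vector-only array 2 minus 1) and 0.05 (H1.3 array 2 minus 1). The members were chosen for their differences between the groups, so the gap between the 2 kinds of pairs is part of that choice and supports nothing. Against each member's own mean over the 4 arrays, the medians were -0.12 and -0.13 with vector only and 0.06 and 0.14 with H1.3. In the same measure the 371 other 1q genes above the median level gave -0.08 and -0.10, then 0.08 and 0.10.

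**Figure D2:**
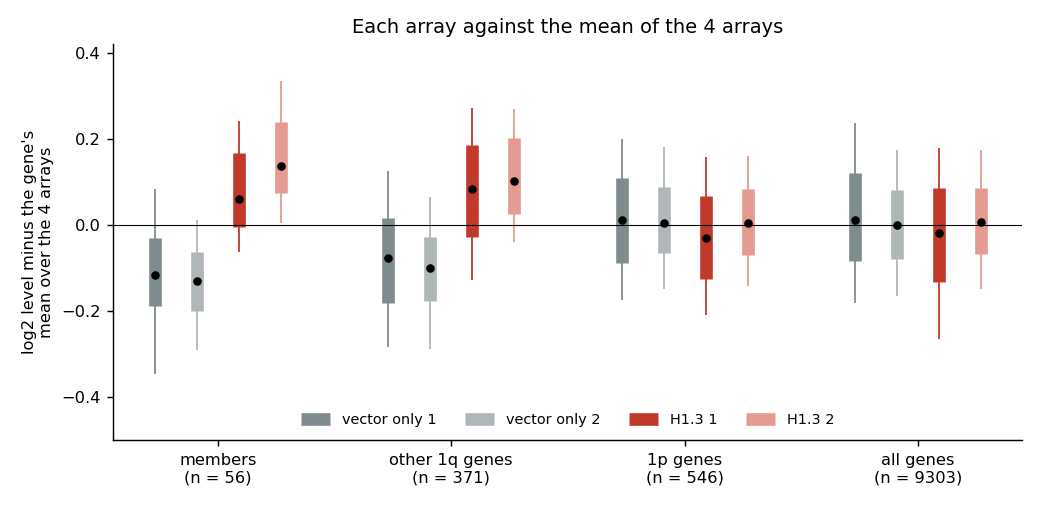
Log2 level minus the gene's mean over the 4 arrays, for the 56 members and for other 1q, 1p and all genes above the median level; the point is the median over genes, the box the middle 50% of genes and the line the 10th to 90th percentile. The members' medians are -0.12 and -0.13 with vector only and 0.06 and 0.14 with H1.3, while those of 1p and of all genes stay between -0.03 and 0.0125.

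The pairs of arrays are also given by stretch of the arm, as a description, since the arm itself was chosen for its difference between the groups. Over the 8 blocks, the lowest median of any pair between groups was 0.13 and the highest was 0.28. Pairs within a group lay between -0.08 and 0.105. In the first block the lowest between-group and the higher within-group median were 0.185 and 0.105, and in the fourth 0.14 and 0.09.

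**Figure D3:**
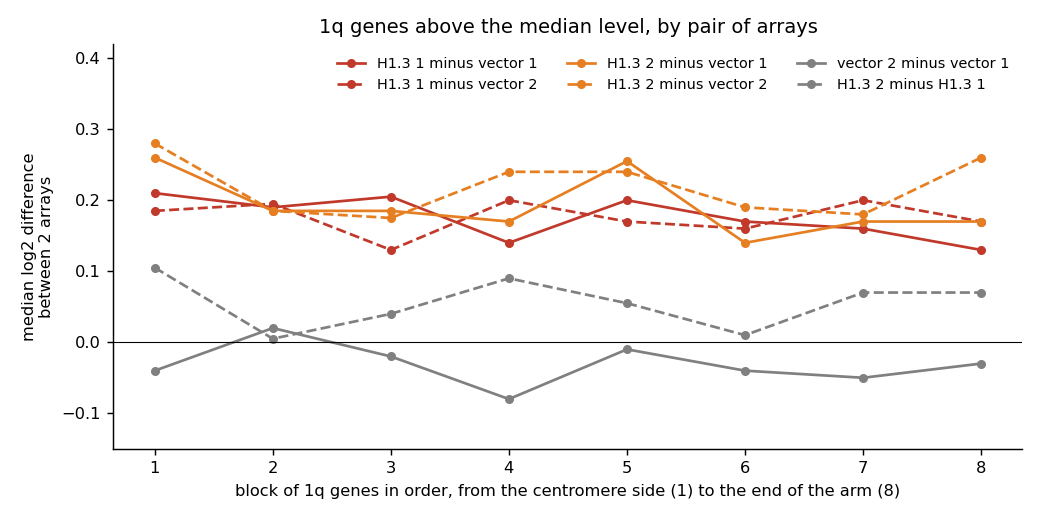
Median log2 difference between 2 arrays over the 1q genes above the median level, in 8 blocks from the centromere side to the end of the arm; red and orange lines pair an H1.3 with a vector-only array and grey lines pair the 2 arrays of a group. Between-group medians lie from 0.13 to 0.28 and within-group medians from -0.08 to 0.105.

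The members with the largest differences in either direction encode surface, secreted or cell-type-restricted proteins, apart from NMNAT2. FLG encodes filaggrin, the protein that bundles keratin in the outer epidermis. Levels were 9.89 and 9.85 with vector only and 12.00 and 11.30 in the H1.3 arrays, a rise of 1.78 ± 0.22 (SE; limma adjusted p 0.0302). CHI3L1, a secreted chitinase-like glycoprotein, had 5.86 and 5.67 against 6.80 and 7.08, a rise of 1.18 ± 0.14 (adjusted p 0.0302), with a mean below the median level. NMNAT2, a cytosolic enzyme of NAD synthesis best known in axons, had 7.47 and 7.14 against 8.27 and 8.42, a rise of 1.04 ± 0.15 (adjusted p 0.0467). SEMA4A, a membrane semaphorin that signals between cells, went the other way: 7.22 and 7.04 against 6.08 and 5.98, a difference of -1.10 ± 0.12 (adjusted p 0.0264), also with a mean below the median level. The groups of arrays did not overlap for any of these 4 genes. All 4 calls were lost without any 1 of the 4 arrays, where the differences ran from 1.43 to 2.13 for FLG, 1.04 to 1.32 for CHI3L1, 0.88 to 1.21 for NMNAT2 and -1.19 to -1.01 for SEMA4A, with adjusted p from 0.433 to 0.802. These losses are not particular to the 4 genes: over all 21214 clusters, limma made 107 calls with the 4 arrays and 0 without any 1 of them, so the calls of S100A8, FOLR1 and EPAS1 were lost as well. Unadjusted p was under 0.05 for 1292 to 2367 clusters there. Adding the unnamed transcript clusters to the test also ended the calls of the 4 members, with adjusted p from 0.166 to 0.21. In that test limma called 4 of all 33297 clusters, so this loss is not particular to them either.

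The sequence just before the start of these 4 genes is given as a description, since stretches of this length were not counted over the members as a whole. The 120 bases upstream of the annotated start are shown for the 4 called genes, because their start regions differ in CpG content, and for POLR3C, an uncalled housekeeping member. They are from RefSeq on build GRCh38.p14, on the gene's strand, 5′ to 3′: FLG at chr1:152325240-152325359 (minus strand), CHI3L1 at chr1:203186705-203186824 (minus), SEMA4A at chr1:156149824-156149943 (plus), NMNAT2 at chr1:183418381-183418500 (minus) and POLR3C at chr1:145824080-145824199 (plus). Capitals mark CG pairs and the letters TATAAA.
FLG: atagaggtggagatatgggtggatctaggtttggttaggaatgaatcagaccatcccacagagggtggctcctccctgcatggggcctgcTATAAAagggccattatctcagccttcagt
CHI3L1: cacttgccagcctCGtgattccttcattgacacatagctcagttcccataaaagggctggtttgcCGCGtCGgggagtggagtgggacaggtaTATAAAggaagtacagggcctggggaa
SEMA4A: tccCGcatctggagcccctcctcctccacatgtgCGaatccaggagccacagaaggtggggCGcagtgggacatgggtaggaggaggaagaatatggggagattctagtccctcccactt
NMNAT2: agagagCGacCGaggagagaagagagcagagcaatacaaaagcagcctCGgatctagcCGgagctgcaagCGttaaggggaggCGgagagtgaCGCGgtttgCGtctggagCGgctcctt
POLR3C: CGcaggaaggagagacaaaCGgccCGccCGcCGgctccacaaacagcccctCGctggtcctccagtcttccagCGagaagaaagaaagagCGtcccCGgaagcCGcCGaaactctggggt
The FLG stretch holds 0 CG pairs, CHI3L1 4, SEMA4A 3, NMNAT2 10 and POLR3C 11. TATAAA begins 30 bases before the start of FLG and 27 before that of CHI3L1, and is absent from the other 3 stretches.

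Most members had CpG-rich start regions. RefSeq's 300-base window, 250 bases before the start and 50 after, was listed for 50 of the 56 measured members. Their median CpG ratio, observed over the number that base composition gives, was 0.816, against 0.857 for 7678 genes above the median level and 0.58 for all 27305 listed genes. POLR3C, the uncalled member shown above, had a ratio of 1.089, higher than most members. A ratio under 0.4 was found in 5 members (10%): FLG at 0.064, BCL9 at 0.163, CHI3L1 and SEMA4A at 0.298 each, and SLC39A1 at 0.356. The share was 7.31% of genes above the median level and 41.0% of all listed genes. A CpG-poor start was thus found in 3 of the 4 called members and 2 of the 46 uncalled members with a listed window. The called members differ in level too: CHI3L1 and SEMA4A lie below the median level, and all 52 uncalled members lie above it. CpG ratios of called genes other than members were not analysed here, so nothing is read from this count.

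Short motifs were searched on both strands of the same windows, as letters only. TATAAA was present in 3 members, FLG, CHI3L1 and ADAR (6%), against 5.29% of genes above the median level and 12.0% of all listed genes. CACGTG was in 20% of members, against 10.9% and 7.43%. CCAAT was in 40%, against 37.4% and 35.7%. GGGCGG was in 66%, against 72.5% and 44.6%. CCGGAAG was in 16%, against 20.7% and 10.7%. TGCGCATGC was in 2%, against 2.94% and 1.65%, and TGACGTCA was in 0 of 50 members, against 3.52% and 1.98%. None of these motifs contains another, though matches may share bases. A match is a description of letters and not a site.

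Genes of transcription and chromatin were the largest group, with 17 members, a median difference of 0.27 and 15 positive. None was called. PIAS3, a SUMO ligase that restrains STAT3, had 7.80 and 8.02 with vector only and 8.35 and 8.71 in the H1.3 arrays, a difference of 0.62 ± 0.16 (SE; limma adjusted p 0.164). POLR3C, a subunit of the RNA polymerase that makes tRNAs, had 8.89 and 8.71 against 9.28 and 9.40, a difference of 0.54 ± 0.13 (adjusted p 0.136). Neither gene's groups overlapped. LBR, the lamin B receptor that tethers heterochromatin to the nuclear envelope, had 9.60 and 9.60 against 9.98 and 9.94, and BCL9, a beta-catenin coactivator, had 8.50 and 8.67 against 8.82 and 9.05.

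The other chromatin members named here differed by 0.15 to 0.32, beside a median of 0.195 for all 1q genes above the median level. ARNT, the shared partner of hypoxia and dioxin receptor factors, differed by 0.32. KDM5B, a histone H3 lysine 4 demethylase, differed by 0.315, and RBBP5, a core subunit of the methyltransferases that write the same mark, by 0.27. CDC73, a PAF1 complex subunit that follows RNA polymerase II, and RFX5, which binds MHC class II promoters, both differed by 0.285. VPS72, of the complexes that deposit H2A.Z, differed by 0.185, POGK, a KRAB domain protein derived from a transposon, by 0.17, DCAF6, a substrate receptor of ubiquitin ligases, by 0.165, and TPR, of the nuclear pore basket, by 0.15. The spread between arrays was of that size for DCAF6, at 9.19 and 9.09 against 9.12 and 9.49, and its groups overlapped.

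In 4 members of the chromatin group the difference was negative or close to 0. MDM4, an inhibitor of p53, had 8.29 and 8.43 with vector only and 8.18 and 8.23 in the H1.3 arrays, a difference of -0.155 ± 0.12 (SE; adjusted p 0.704). CHD1L, a remodeller recruited by poly(ADP-ribose), had 7.97 and 7.72 against 7.69 and 7.93, a difference of -0.035. PARP1, which makes that polymer at DNA breaks, had 10.58 and 10.38 against 10.56 and 10.52, a difference of 0.06. With 1 array left out the sign turned, to 0.09 for CHD1L without vector-only array 1, 0.085 for CHD1L without H1.3 array 1 and -0.04 for PARP1 without vector-only array 2, and the value for MDM4 ran from -0.225 to -0.085. NUCKS1, a nuclear DNA-binding protein of the DNA damage response, differed by 0.025 on its brighter cluster and by -0.135 on its other cluster, so the 2 clusters disagree in sign, and the brighter gave -0.025 without H1.3 array 2.

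RNA-binding and RNA-processing members had a median of 0.295 over 6 genes, none called. ADAR, which edits adenosine to inosine in double-stranded RNA, had 9.30 and 9.16 against 9.60 and 9.83, a difference of 0.485 ± 0.13 (SE; adjusted p 0.192). ILF2, a partner of double-stranded RNA-binding proteins, had 11.67 and 11.69 against 12.00 and 11.97, and UBAP2L, a stress granule protein, had 9.99 and 9.95 against 10.29 and 10.26. Both differed by 0.305, several times the gap between their replicates. INTS3, of the integrator complex that cleaves nascent RNA, differed by 0.25 on its brighter cluster and by 0.22 on the other. IVNS1ABP, a kelch protein tied to splicing, differed by 0.285 with overlapping groups, at 10.85 and 11.30 against 11.18 and 11.54, and by 0.06 without vector-only array 1 or 0.51 without vector-only array 2. CLK2, a kinase of splicing factors, had 9.51 and 9.41 against 9.48 and 9.44, a difference of 0.

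Members of protein folding and turnover were the group with the smallest median, 0.1375 over 10 genes, with 9 positive and none called. CCT3, a chaperonin subunit, had 10.86 and 10.80 against 11.21 and 11.00, a difference of 0.275 ± 0.13 (SE; adjusted p 0.473). WDR26, of a ring-shaped ubiquitin ligase, also differed by 0.275, UCHL5, a deubiquitinase of the proteasome, by 0.26, and UBE2Q1, a ubiquitin-conjugating enzyme, by 0.235. EDEM3, a mannosidase that marks misfolded glycoproteins, differed by 0.145, and PFDN2, a prefoldin subunit, by 0.13. PSMB4, of the proteasome core, had 12.22 and 12.13 against 12.23 and 12.36, and PSMD4, its ubiquitin receptor, had 8.62 and 8.55 against 8.66 and 8.61. These differences, 0.12 and 0.05, were about as small as the gaps between replicates, and that of PSMB4 ran from 0.055 to 0.185 with 1 array left out. CACYBP, an adaptor of ubiquitin ligation, differed by 0.095 and 0.055 on its 2 clusters. QSOX1, which forms disulfide bonds in secreted proteins, had 9.26 and 9.77 against 9.54 and 9.41, and its difference of -0.04 became 0.215 without vector-only array 2 and 0.025 without H1.3 array 2.

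The 7 members of trafficking, cytoskeleton and membrane lipids had a median of 0.225, and the highest were a pair of lipid kinases. PIP5K1A, which makes the phosphoinositide PIP2 at the plasma membrane, had 9.69 and 9.95 against 10.35 and 10.45, a difference of 0.58 ± 0.13 (SE; adjusted p 0.134). PI4KB, which makes its precursor at the Golgi, had 9.11 and 9.04 against 9.55 and 9.52, a difference of 0.46 ± 0.11 (adjusted p 0.153). They lie close together on 1q, with PSMD4, at 0.05, and ZNF687, at 0.275, between them. TOR1AIP1, an inner nuclear membrane activator of torsin, differed by 0.385, and STX6, a SNARE of the trans-Golgi network, by 0.225. VAMP4, another Golgi SNARE, differed by 0.145, SCYL3, a pseudokinase, by 0.025, and KIFAP3, the kinesin-2 adaptor, by -0.09, and the groups overlapped for these 3. KIFAP3 gave 0.03 without H1.3 array 1.

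The group called surface and secreted had a median of 0.43 over 6 genes, a figure set in part by FLG, CHI3L1 and SEMA4A. FLG was placed in it although filaggrin, which bundles keratin, is neither a surface nor a secreted protein. EFNA1, a membrane-anchored ephrin ligand, had 8.29 and 8.40 against 8.86 and 8.86, a difference of 0.515 ± 0.12 (SE; adjusted p 0.127). ADIPOR1, the adiponectin receptor, had 9.72 and 9.62 against 10.01 and 10.02, a difference of 0.345, and ADAM15, a membrane metalloprotease, had 8.77 and 8.62 against 9.01 and 8.94, a difference of 0.28. The groups did not overlap for these 3 genes.

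The 10 members of metabolism, ions and energy had a median of 0.1825, with 9 positive, and NMNAT2 was the 1 called. SLC39A1, a zinc importer, had 9.38 and 9.39 against 9.72 and 9.69, a difference of 0.32. PRKAB2, a regulatory subunit of the energy sensor AMPK, differed by 0.295, and UCK2, a pyrimidine salvage kinase, and TIMM17A, of the mitochondrial import channel, both by 0.195. XPR1, the phosphate exporter, had 9.94 and 10.14 against 10.21 and 10.21, a difference of 0.17 ± 0.12 (SE; adjusted p 0.681), with 0.07 without vector-only array 1 and 0.27 without vector-only array 2. ENSA, an inhibitor of the phosphatase PP2A, differed by 0.15, 0.17 and 0.21 on its 3 clusters. ATP2B4, a calcium pump, differed by 0.145, IARS2, a mitochondrial tRNA synthetase, by 0.065, and SELENBP1, a selenium-binding oxidase, by -0.015. The groups overlapped for these last 3.

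**Figure D4:**
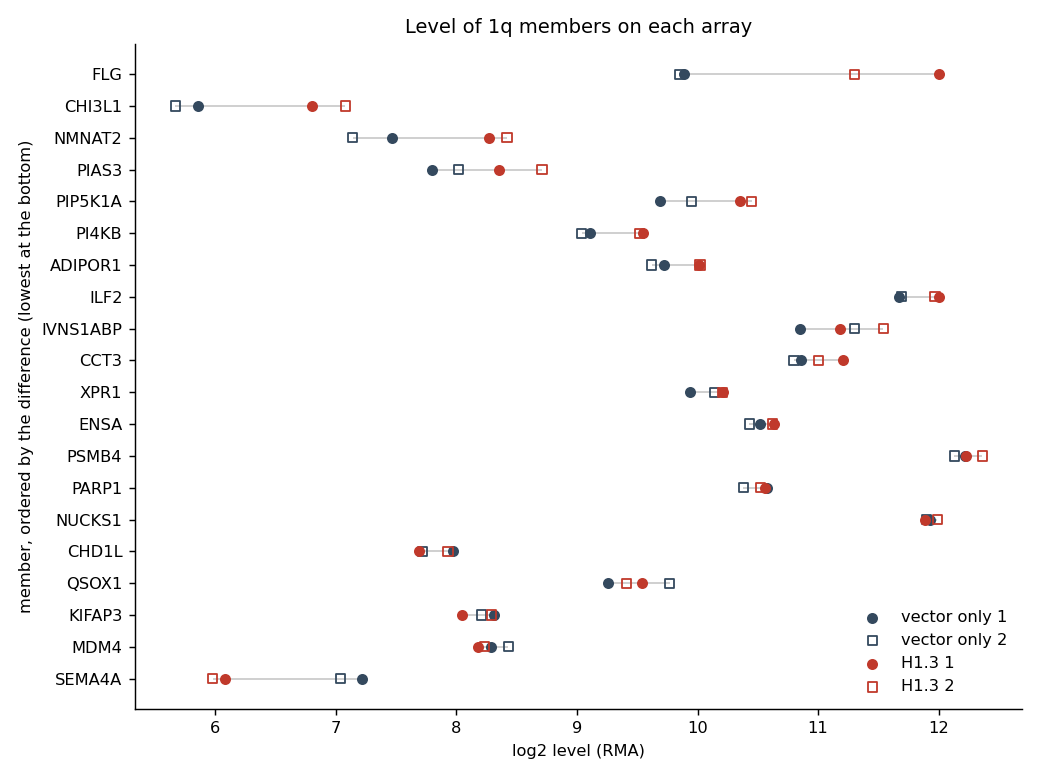
Log2 level on each of the 4 arrays for 20 members: those called, those with the largest and smallest differences, and the members of highest level in each role group, ordered by the difference. Red symbols (H1.3) lie right of dark ones (vector only) for FLG down to ILF2, for example 12.00 and 11.30 against 9.89 and 9.85 for FLG, and left of them for MDM4 and SEMA4A.

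Partners of the members encoded outside 1q did not lie higher with them. Of 93 listed genes for subunits or partners of the same complexes, 86 were measured, with a median difference of -0.04, 35 positive and 1 called. For 82 of them on other chromosomes the median was also -0.04. Of 15 members set beside their partners, 14 lay above the partners' median, with MDM4 (-0.155, against MDM2 at 0.01) the exception. The members were chosen for high values and the partners were not, so the comparison is a description.

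In 9 complexes or partner lists the 1q gene lay above every partner measured. CCT3 at 0.275 lay above all 7 other measured chaperonin subunits, which ran from -0.28 to 0.10. PFDN2 at 0.13 lay above all 5 other prefoldin subunits (median -0.205), CDC73 at 0.285 above 4 PAF1 complex subunits (median -0.095), and POLR3C at 0.54 above 7 RNA polymerase III subunits (median -0.05). INTS3 at 0.25 lay above 9 integrator subunits with a median of -0.165, the lowest INTS9 at -0.705 ± 0.17 (SE; limma adjusted p 0.137). RBBP5 at 0.27 lay above WDR5, DPY30, KMT2A and ASH2L, the last at -0.675 ± 0.13 (adjusted p 0.0951). RFX5 lay above its 3 partners, TIMM17A above its 4, and PARP1 at 0.06 above its relative PARP2 at -0.03. The proteasome was different: PSMB4 at 0.12 lay above 23 of 26 proteasome genes and PSMD4 at 0.05 above 19 of them, whose median was -0.04.

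Several of the lowest partner values lay on chromosomes whose genes were low as well. ASH2L, INTS9, INTS10, POLR3D and INTS8 lie on chromosome 8, where the genes above the median level had a median of -0.235. These 5 partners ran from -0.705 to -0.115, with a median of -0.48. The chromosome's median pools both arms, which were not analysed separately. The 6 partners on chromosome 11, KMT2A, INTS4, INTS5 and CTR9 among them, had a median of -0.18, and that chromosome's genes one of -0.185. Other low partners lie on chromosomes whose medians were near 0, though these too pool both arms and would not show a low stretch within a chromosome. PSMA2 at -0.39 and INTS1 at -0.31 are on chromosome 7 (-0.05), and PSMC6 at -0.295 is on chromosome 14 (0.035). Without the 11 partners on chromosomes 8 and 11, the 71 on the remaining chromosomes other than 1 had a median of -0.03, with 32 positive.

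Besides MDM4 and the proteasome genes, 3 members had a partner with a larger difference. PRKAG2, another AMPK subunit, differed by 0.325 against 0.295 for PRKAB2, and SRCAP, the ATPase of the complex that VPS72 serves, by 0.31 against 0.185. EPAS1, the hypoxia factor that pairs with ARNT, had 7.05 and 7.21 with vector only and 7.96 and 8.25 in the H1.3 arrays, a rise of 0.975 ± 0.14 (SE; limma adjusted p 0.0477). HIF1A, the related factor, differed by 0.23.

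**Figure D5:**
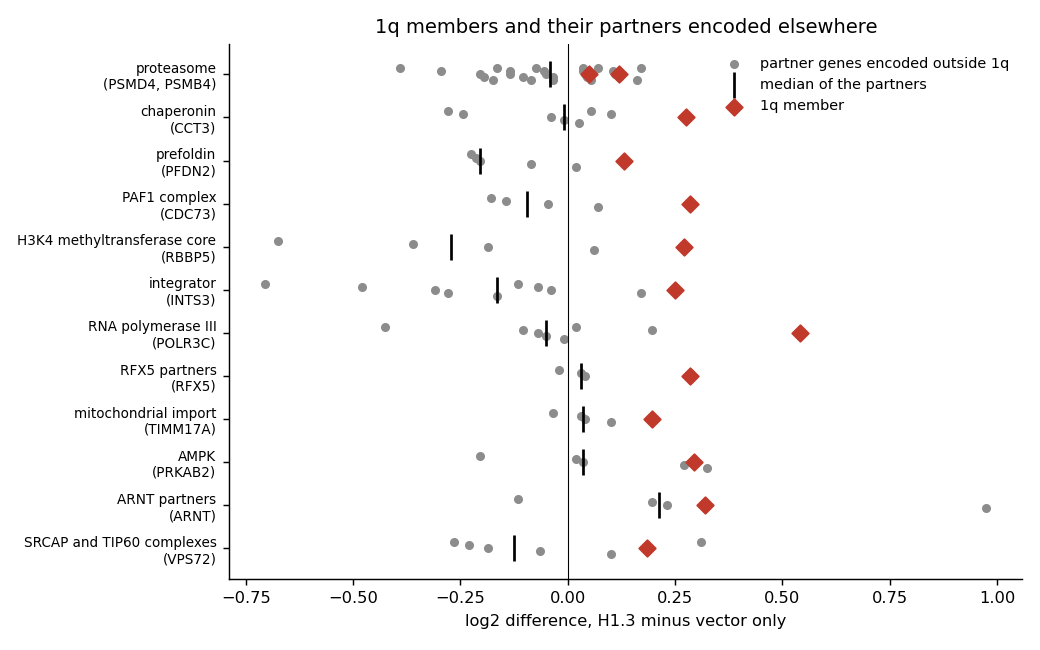
Log2 difference, H1.3 minus vector only, of 13 members of 1q (red diamonds) and of genes for subunits or partners of the same complexes encoded outside 1q (grey points, with the median as a black bar). Each diamond drawn lies right of the bar in its row, for example POLR3C at 0.54 against -0.05, and EPAS1 at 0.975 is the point farthest to the right. Not drawn are MDM4, which lay below its partner (-0.155 against 0.01 for MDM2), and PARP1 (0.06 against -0.03 for PARP2).

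Genes that start beside a member, on the opposite strand, also lay higher. Within 1000 bases, 12 members had such a head-to-head start in the RefSeq table, and 7 of the neighbours were measured, all 7 with a positive difference and none called. RNF115, a ubiquitin ligase gene whose start is 105 bases from that of POLR3C, had 8.54 and 8.39 against 8.89 and 9.12, a difference of 0.54 ± 0.13 (SE; adjusted p 0.153), the same size as that of POLR3C. RO60, an RNA-binding protein gene beside UCHL5, differed by 0.345, ODR4 beside TPR by 0.34, and MPC2, a mitochondrial pyruvate carrier gene beside DCAF6, by 0.235. CREB3L4 beside SLC39A1 differed by 0.15, LTAP1 beside UBAP2L by 0.12 and TSACC beside CCT3 by 0.11. The groups overlapped for MPC2 and TSACC, and TSACC had a mean level of 4.75, below the median level. All of these genes lie on 1q, where 75.2% of the 884 measured genes and 83.5% of those above the median level were positive. Nothing is read from the count of neighbours.

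Cancer-related 1q genes outside the members, TXNIP apart, lay within the range of the members, -1.1 to 1.78. Of 20 listed, 15 were measured, with a median difference of 0.19, 13 positive and 0 called, while 4 of 884 measured 1q genes were called higher and 1 lower. The 2 negative ones were S100A6 at -0.655 and ELK4 at -0.035. MCL1, an anti-apoptotic BCL2 relative, had 10.95 and 10.90 against 11.24 and 11.16, a difference of 0.275 ± 0.11 (SE; adjusted p 0.422). MUC1, an epithelial mucin, differed by 0.235, CKS1B, a cyclin-dependent kinase subunit, by 0.11, ENAH, an actin regulator, by 0.515 and ABL2, a tyrosine kinase, by 0.585. TXNIP, an arrestin-like inhibitor of thioredoxin near the start of the arm, had 8.83 and 6.47 against 11.28 and 10.84, a difference of 3.41 ± 0.64 (adjusted p 0.0913). Its vector-only arrays differed from each other by -2.36, and it stood far outside the range of the members.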

How the data were processed

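OVCAR-3 RNA from 2 vector-only and 2 H1.3 arrays was compared. The authors deposited log2 values for 33297 transcript clusters, made with RMA in Affymetrix Expression Console per the submitters' processing notes; versions are not given here, and probe-level intensities were not used. RMA equalises the distributions of the arrays, so differences are relative to the other genes.

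Clusters were named from the platform annotation through gene identifiers to RefSeq GRCh38.p14, which also gave gene order. Of the clusters, 19460 had 1 symbol, 1754 several and 12083 none here; of the single-symbol clusters, 19429 matched RefSeq. A gene is its single-symbol cluster of highest mean. The arms were divided at the widest gap between gene starts on chromosome 1. The 21214 named clusters were fitted in R 4.3.3 with limma 3.58.1 (two-sided lmFit and eBayes, Benjamini-Hochberg, threshold 0.05), with 2 residual and 5.16 prior degrees of freedom. The number of arrays limits precision: the members' median SE was 0.12. The fit was also run on simulated data with independent noise drawn from limma's own fitted prior. That run cannot show whether limma suits these 4 arrays. Python 3.11.15 and matplotlib 3.10.9 drew the figures.

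The members and lists were chosen with earlier results of these data known, and windows, gaps, head-to-head neighbours, motifs and the sequences shown were chosen after values were seen. Members planned to be named in full were those called, the 5 largest and 5 smallest differences and the 2 of highest level per role group. Other members are named by their values. The text departs from that plan. POLR3C, ADAR and EFNA1 are given SE and adjusted p as well, while some planned members, CHD1L, KIFAP3 and QSOX1 among them, are given without. The replicate differences of the 2 groups correlated at 0.06 over clusters, and no shared batch is stated in the labels, so arrays were not treated as paired by number. Alternatives left out each array, added a replicate block, or changed scaling, filter, clusters tested, moderation, cluster per gene and threshold.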

Additional observations from a re-analysis of the deposited data

How the results depend on the processing

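Leaving out each array in turn kept the direction of the member median, from 0.175 to 0.29, with 47 to 52 of 56 members positive, and those of the other 1q genes, 0.08 to 0.1325, and of the partners on other chromosomes, -0.0875 to -0.0225. Without clusters below the median level the other 1q genes gave 0.195. Single calls were lost: 0 members were called higher and 0 lower without any 1 array (range 0 to 0 for both), with the replicate block, without clusters below the median level, and over all transcript clusters, while 20 were higher at an unadjusted p under 0.05. Limma called 0 of all 21214 clusters without any 1 array or with the block, so those losses say nothing of these genes. At an unadjusted p under 0.05, 9 to 21 members were higher under those settings, beside 3.25% to 6.51% of all clusters tested, and 0 or 1 lower, beside 2.81% to 9.64%. The block and the larger set of clusters left the differences themselves as they were. FLG and NMNAT2 had adjusted p of 0.0565 and 0.0673 without the dim clusters, where CHI3L1 and SEMA4A were not tested. Limma called 25 of the 10612 clusters tested there, and 4 of 33297 over all transcript clusters, against 107 of 21214 in the main fit. Signs turned with 1 array left out for CHD1L (-0.16 to 0.09), PARP1 (-0.04 to 0.16), QSOX1 (-0.295 to 0.215), KIFAP3 (-0.21 to 0.03) and NUCKS1 (-0.025 to 0.075), the last also with the mean of its clusters (-0.055); the cause was not tested. A second quantile normalization, array medians set equal and trended robust moderation kept the 3 higher calls and the 1 lower call. H1-3 stayed negative, -1.07 to -0.30, and uncalled. Probe signals over background were not analysed here. Leaving out the partners on chromosomes 8 and 11, an alternative chosen after seeing the data, gave a partner median of -0.03.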
